A study of Homo sapiens with 11 samples.

Results

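The genes described are CALR, CANX, CALU, RCN1, RCN2, SDF4, NUCB1 and NUCB2, which encode calreticulin, calnexin and further calcium-binding proteins of the endoplasmic reticulum (ER) and Golgi. They were chosen by name, with earlier results of these data known, and all 8 were found among the 38021 genes of the deposited count table. Shares of all genes are given beside their counts for scale, without a test. RNA was sequenced after 6 h of treatment from HEK293T, a cell line of human embryonic kidney origin that is labelled wild type. Vehicle cells received 0.1% DMSO. Treated cells received thapsigargin (Tg) at 500 nM, AA147 at 10 µM, or AA132 at 0.1, 0.3, 1, 3, 6, 10, 15 or 30 µM, which makes 11 conditions. The labels list 1 sample for each condition while 3 columns of the table carry the name of each condition, each with its own number, and these 33 columns are treated as libraries (n = 3 per condition). No label says that the columns come from separate cultures, so the p-values measure only the spread between these libraries, which may be technical. AA147 and AA132 are small molecules, and the title of the series asks how their reactivity with proteins bears on which arm of the ER stress response each one turns on.

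Most of the calcium inside a cell is stored in the ER, bound by abundant proteins of low affinity. Calreticulin (CALR, soluble) and calnexin (CANX, in the membrane) are lectin chaperones that hold newly made glycoproteins through a trimmed sugar chain until they fold, and calreticulin is also a main calcium buffer. Calumenin (CALU), the reticulocalbins (RCN1, RCN2) and SDF4, a Golgi protein, belong to the CREC family of EF-hand proteins, while the nucleobindins (NUCB1, NUCB2) are EF-hand proteins of the Golgi and secretory pathway. Thapsigargin blocks the pump that fills the ER with calcium, and so causes ER stress. The unfolded protein response that follows has arms controlled by ATF6, by IRE1 with XBP1, and by PERK. ATF6 is known to act through the ER stress response element (ERSE), CCAAT and CCACG separated by 9 bases, to which the factor NF-Y also binds.

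Promoter windows of 300 bases from RefSeq (GRCh38.p14), 250 before each start and 50 from it on, were available for all 8 genes and were searched for that element on both strands. ERSE was found in the windows of CALR and CANX and in none of the other 6. Over all 35116 windows in the table, 27 hold it, or 0.077%. Among other calcium-binding ER proteins it was found for HSPA5, HSP90B1 and PDIA6, 3 of 11 genes with a window, and among the partners of the lectin chaperones described further on for 0 of 11. The matches are shown because these genes are set side by side below, each in the direction of the element, with the fixed letters in capitals.
CALR: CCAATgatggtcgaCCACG
CANX: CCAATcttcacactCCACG
HSPA5: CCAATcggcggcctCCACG
HSP90B1, first match: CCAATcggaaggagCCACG
HSP90B1, second match: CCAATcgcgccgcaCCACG
PDIA6: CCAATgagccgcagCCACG

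The CALR match lies on the minus strand at chr19:12938384-12938402, at positions -225 to -207 from the RefSeq start. The stretch below runs along the plus strand over chr19:12938359-12938577, up to the first start that GENCODE v44 annotates. Its first run of capitals is the ERSE, read on the other strand. The second is a match to the antioxidant response core, TGAC and GC separated by 3 bases, which 13.3% of all windows hold.
CALR upstream: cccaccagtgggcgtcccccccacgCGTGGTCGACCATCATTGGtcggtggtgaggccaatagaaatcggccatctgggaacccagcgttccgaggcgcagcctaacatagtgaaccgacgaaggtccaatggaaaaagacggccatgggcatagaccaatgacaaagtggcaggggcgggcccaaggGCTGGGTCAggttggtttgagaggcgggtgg

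CANX has 4 RefSeq windows, and 3 of them hold 1 and the same ERSE, on the plus strand at chr5:179698778-179698796. NUCB1 holds a related element, ERSE-II (ATTGG and CCACG separated by 1 base), on the minus strand at chr19:48900243-48900253, positions -69 to -59 from its start. ERSE-II is in 19 of the 35116 windows, or 0.054%. Both are shown on the plus strand with 30 bases in all, the match in capitals.
CANX: cccggCCAATCTTCACACTCCACGaagaat
NUCB1: cagagccagCGTGGACCAATcagacctctt

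The core of the unfolded protein response element (TGACGTGG, in 0.729% of windows) and that of the amino acid response element (TTGCATCA, in 0.866%) were found in none of the 8 genes. CANX also holds an antioxidant response core, in 2 of its windows, and NUCB2 holds one at -101 to -93 in 1 of its 2 windows. CALU, RCN1, RCN2 and SDF4 hold none of the 5 motifs. A match is a run of letters and not a measured binding site, and a missing match says only that these letters are absent from the window.

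Library totals ran from 32.27 to 37.96 M counts, and the 8 genes had at least 2595 counts in every library. The line's own markers KRT8 (611 to 998 CPM, counts scaled to the library total) and KRT18 (222 to 385 CPM) were high in all 33 libraries, NEFL ran from 44.5 to 77.0 CPM and PAX2 from 0.399 to 1.53 CPM. Markers of other lineages (PTPRC, CD3E, HBB, ALB and MYH6) stayed at or below 0.186 CPM and were at 0 in 21 to 32 libraries. Counting error alone did not account for the spread among libraries given the same treatment, with a chi-square per degree of freedom of 4.48 to 59.4 (median 7.56, 33 pairs) against a value near 1 for counting error. Vehicle library 1 stood farthest from the other libraries of its condition (mean 52.8), followed by AA132 10 µM library 1 (34.9).

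At 1 and 3 µM AA132 2 libraries stood apart in ER chaperones. For HSPA5, which encodes the chaperone BiP, the libraries labelled 1 µM held 1660, 1028 and 1093 CPM, and those labelled 3 µM held 1921, 1969 and 1042 CPM. Library 1 of 1 µM thus lay nearer to libraries 1 and 2 of 3 µM, and library 3 of 3 µM lay within the range of the other 1 µM libraries. HSP90B1 (1606, 1289 and 1281 CPM at 1 µM, then 1832, 1869 and 1278 CPM at 3 µM) and PDIA4 (667, 466 and 474 CPM, then 716, 723 and 466 CPM) also had library 1 high at 1 µM and library 3 low at 3 µM. For HSP90B1 and PDIA4 the 3 µM library 3 lay at or below the other 1 µM libraries. Whether the labels of these 2 libraries are right was not tested, and the values of CALR, CANX and these 3 genes at 1 and 3 µM are given with and without them.

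Set per length, CALR was the most abundant of the 8 transcripts in vehicle cells. Its level was 422 ± 28.9 RPKM (reads per kilobase of exon, scaled for depth, SD, n = 3), against 66.8 ± 7.34 for CALU, 57.7 ± 10.9 for CANX and 40.2 ± 5.72 for SDF4. RCN2 stood at 27.1 ± 0.65 RPKM, NUCB1 at 17.7 ± 2.18, RCN1 at 16.6 ± 0.50 and NUCB2 at 12.2 ± 0.50. The order below CALR depends on the length used: with the longest transcript in place of all exonic bases, CANX (110.5 RPKM) stood above CALU (69.7 RPKM). Under Tg, CALR reached 1055 ± 61.2 RPKM and NUCB2 27.9 ± 0.76 RPKM, so that NUCB2, below NUCB1 and RCN2 in vehicle, stood above NUCB1 (19.1 ± 0.43) and RCN2 (24.5 ± 1.11). With the longest transcript NUCB2 rose from 33.8 to 77.1 RPKM, again above NUCB1 (38.3 RPKM) and RCN2 (39.0 RPKM) under Tg. In vehicle it was then below RCN2 (43.1 RPKM) but within the spread of NUCB1 (35.4 ± 4.38 RPKM). The CPM of all 8 genes summed to 3176 ± 113 in vehicle and 6683 ± 210 under Tg.

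**Figure D1:**
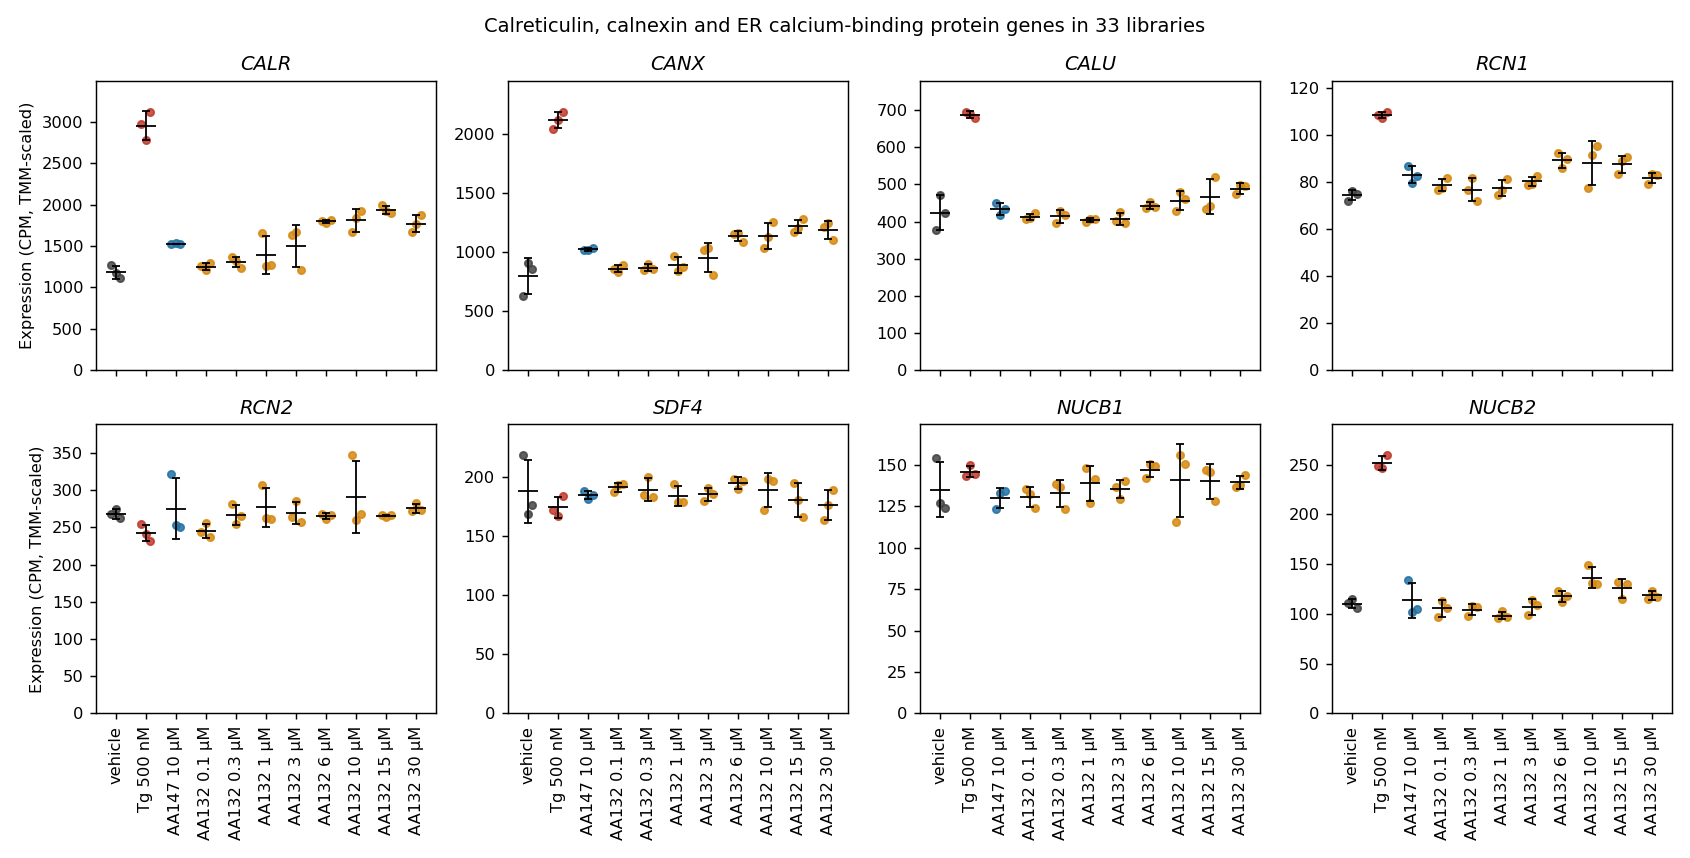
Expression of the 8 genes in each of the 33 libraries, as CPM scaled between libraries by TMM (y axis, linear, from 0), by condition (x axis). Points are libraries, and black bars are the mean and SD of 3. CALR, CANX, CALU, RCN1 and NUCB2 are highest under Tg with no overlap, while RCN2, SDF4 and NUCB1 show overlapping libraries over most conditions.

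The first question was how the 8 genes respond to ER stress caused by calcium depletion, in Tg against vehicle. Both lectin chaperones, 2 of the 4 CREC proteins and 1 of the 2 nucleobindins were higher: CALR, CANX, CALU, RCN1 and NUCB2 passed an adjusted p of 0.05 (Benjamini-Hochberg) in edgeR's quasi-likelihood test over 17793 genes. None of the 8 was called lower. Over all genes 31.2% were called, 16.2% higher and 15% lower. The median log2 fold change was 0.62 over the 8 genes and 0.00 over all genes. In bulk RNA a change in the share of responding cells and a change in each cell cannot be told apart.

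CALR (ENSG00000179218, chromosome 19, 12938578 to 12944489 in GENCODE v44) held 1270, 1168 and 1111 CPM in the vehicle libraries and 2971, 2778 and 3120 CPM under Tg. The groups lay far apart, with the lowest Tg library at 2778 CPM and the highest vehicle library at 1270 CPM. That is a 2.50-fold rise, or 1.32 on the log2 scale (SE 0.09, adjusted p = 1.73e-13 in edgeR). CANX (ENSG00000127022, chromosome 5, 179678628 to 179731641) held 622.5, 905 and 854 CPM in vehicle and 2043, 2120 and 2184 CPM under Tg. Vehicle library 1 was low for CANX, and all 3 Tg libraries lay above all vehicle libraries. The rise was 1.41 on the log2 scale (SE 0.09, adjusted p = 6.77e-14 in edgeR), and 1.26 without vehicle library 1.

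NUCB2 (ENSG00000070081, chromosome 11, 17208153 to 17349980), the nucleobindin from which the peptide nesfatin is cut, rose nearly as much as the lectins. It held 111, 114.5 and 105.5 CPM in vehicle and 249, 246 and 259 CPM under Tg, with no overlap. The rise was 2.28-fold, or 1.19 on the log2 scale (SE 0.08, adjusted p = 1.29e-13 in edgeR). Its relative NUCB1 (ENSG00000104805, chromosome 19, 48900050 to 48923473), a Golgi calcium store protein, held 154, 127 and 124 CPM in vehicle and 143, 150 and 145 CPM under Tg. Those ranges overlap, and the log2 fold change of 0.11 (95% interval -0.06 to 0.29, edgeR adjusted p = 0.346) was not called. Without vehicle library 1, the highest of the 3 for NUCB1, it was 0.21 (adjusted p = 0.0582).

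Among the CREC genes, CALU (ENSG00000128595, chromosome 7, 128739292 to 128773400) held 377, 471 and 423 CPM in vehicle and 695, 691 and 679 CPM under Tg. This is a log2 rise of 0.70 (SE 0.07, adjusted p = 2.08e-10 in edgeR), with no overlap between the groups. RCN1 (ENSG00000049449, chromosome 11, 32091074 to 32105722), a reticulocalbin of the ER lumen, rose from 71.9, 76.2 and 75.0 CPM to 108.5, 107 and 109.7 CPM, again without overlap. This is a log2 rise of 0.54 (SE 0.06, adjusted p = 3.80e-08 in edgeR). The other two CREC genes were not called. RCN2 (ENSG00000117906, chromosome 15, 76931738 to 76954393) held 268, 275 and 262 CPM in vehicle and 254, 241 and 232 CPM under Tg, with all 3 Tg libraries below all vehicle libraries. The log2 fold change was -0.14 (95% interval -0.32 to 0.03, edgeR adjusted p = 0.209). SDF4 (ENSG00000078808, chromosome 1, 1216931 to 1232031), the resident of the Golgi lumen, held 219, 169 and 177 CPM in vehicle and 173, 167 and 184 CPM under Tg, and its log2 fold change was -0.11 (95% interval -0.26 to 0.04, edgeR adjusted p = 0.295).

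The 5 calls under Tg held in every refit tried, including each fit that left out 1 library. The intervals of the 3 genes that were not called reach -0.32 for RCN2, -0.26 for SDF4 and 0.29 for NUCB1. Reads of NUCB1 may include those of the antisense gene NUCB1-AS1, which shares 214 exonic bases with it and held 172 counts per library on average, 3.36% of the NUCB1 count. GENCODE transcripts not analysed here lie on the opposite strand over 270 exonic bases of CALR, 150 of RCN1 and 154 of NUCB2, and on the same strand over 935 of RCN1 and 253 of CANX. The use of strand in counting is not given in the sources used here, so reads of such pairs may not be told apart.

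Each AA132 dose was compared with vehicle to find where the genes begin to respond. Both lectin chaperones, CALR and CANX, were called higher at 6, 10, 15 and 30 µM and at no lower dose. RCN1 was called higher at 6, 10 and 15 µM, NUCB2 at 10 µM alone and CALU at 30 µM alone, while RCN2, SDF4 and NUCB1 were called at none. All calls were higher: 3 of the 8 genes at 6 µM, where 1.07% of all genes were called and 0.866% were higher, and 4 of 8 at 10 µM, where these shares were 1.41% and 1.03%. At 15 µM 3 of 8 were called, with 2.76% of all genes called and 1.97% higher, and at 30 µM 3 of 8, with 7.05% called and 3.86% higher. All 10 comparisons with vehicle share the same 3 vehicle libraries.

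CALR held 1802, 1774 and 1812 CPM at 6 µM, 1663, 1837 and 1927 CPM at 10 µM, 1993, 1924 and 1898 CPM at 15 µM, and 1667, 1766 and 1873 CPM at 30 µM. All 12 of these libraries lay above the vehicle libraries and below the Tg libraries, and the levels at 6, 10, 15 and 30 µM overlapped in part. The log2 fold changes were 0.60, 0.61, 0.71 and 0.58 (SE 0.09 each, edgeR adjusted p from 4.50e-06 to 1.89e-04). At 15 µM, where it was highest, the log2 change of CALR was 53.9% of that under Tg.

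CANX held 1155, 1157 and 1086 CPM at 6 µM, 1035, 1124 and 1255 CPM at 10 µM, 1168, 1199 and 1280 CPM at 15 µM, and 1207, 1248 and 1101 CPM at 30 µM. These too lay above every vehicle library and below every Tg library. The log2 fold changes were 0.51, 0.52, 0.61 and 0.58 (SE 0.09 each, edgeR adjusted p from 7.02e-05 to 0.00157), and 0.37, 0.37, 0.47 and 0.43 without vehicle library 1. Fitted with only its own dose and vehicle, CANX was not called at any of the 4 doses (adjusted p from 0.112 to 0.546), nor CALR at 10 µM (0.115).

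RCN1 held 92.3, 85.8 and 89.6 CPM at 6 µM, 77.5, 91.6 and 95.2 CPM at 10 µM, and 83.5, 88.8 and 90.4 CPM at 15 µM. All 9 libraries lay above vehicle, library 1 of 10 µM by the least. RCN1 also lay above vehicle in all 3 libraries at 0.1, 3 and 30 µM, where it was not called, so this separation is not particular to the called doses. At 6, 10 and 15 µM the log2 fold changes were 0.26, 0.24 and 0.24 (SE 0.06 each, edgeR adjusted p = 0.0328, 0.0476 and 0.0396). Each of these calls was close to the threshold and was lost without vehicle library 3. The call at 6 µM was also lost without 6 µM library 1 or 3, that at 10 µM without vehicle library 1 or 2 or 10 µM library 2 or 3, and that at 15 µM without vehicle library 1 or 15 µM library 2 or 3 (highest adjusted p over all refits 0.450 at 6 µM, 1.00 at 10 µM and 0.493 at 15 µM). At 30 µM RCN1 held 79.2, 83.2 and 82.8 CPM, and the log2 fold change of 0.14 was not called (edgeR adjusted p = 0.228).

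NUCB2 held 149, 131 and 129.6 CPM at 10 µM, above vehicle in all 3 libraries, with a log2 fold change of 0.31 (SE 0.08, edgeR adjusted p = 0.0463). That call was lost without any 1 of the 10 µM libraries and without vehicle library 2 or 3. At 30 µM the gene held 115, 123 and 117 CPM, a log2 fold change of 0.10 (edgeR adjusted p = 0.508), so its value was lower at the highest dose than at 10 µM. CALU held 473, 499 and 495 CPM at 30 µM against at most 471 CPM in vehicle, with a log2 fold change of 0.21 (SE 0.07, edgeR adjusted p = 0.0468). It was lost without any 1 of the 30 µM libraries and without vehicle library 1 (0.13) or 3.

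At 0.1, 0.3 and 1 µM none of the 8 genes was called and 0% of all genes were (796, 981 and 1057 of 17793 had an unadjusted p under 0.05, and DESeq2 called 1, 7 and 0). Of the 8 genes, 0, 0 and 1 had an unadjusted p under 0.05 at these doses. At 3 µM 0.118% of all genes and none of the 8 were called. An unadjusted p under 0.05 was held by 2 of the 8, and by 1635 of 17793 over all genes. CALR held 1634, 1665 and 1211 CPM at 3 µM, and its log2 fold change of 0.35 (edgeR adjusted p = 0.169) became 0.48 (adjusted p = 0.00315) without library 3, the library that stood apart. At 1 µM CALR held 1660, 1252 and 1265 CPM, and its log2 fold change of 0.24 became 0.09 without library 1 (adjusted p = 0.791 and 0.969). CANX held 969, 837 and 870 CPM at 1 µM and 1012, 1035 and 807 CPM at 3 µM, with the same 2 libraries apart. Its log2 fold change was 0.17 at 1 µM and 0.10 without library 1 (adjusted p = 0.827 and 0.969), and 0.26 at 3 µM and 0.37 without library 3 (adjusted p = 0.365 and 0.117). The 2 libraries were singled out by their ER chaperone levels, so the shifts of CALR and CANX without them are no independent support for a response.

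**Figure D2:**
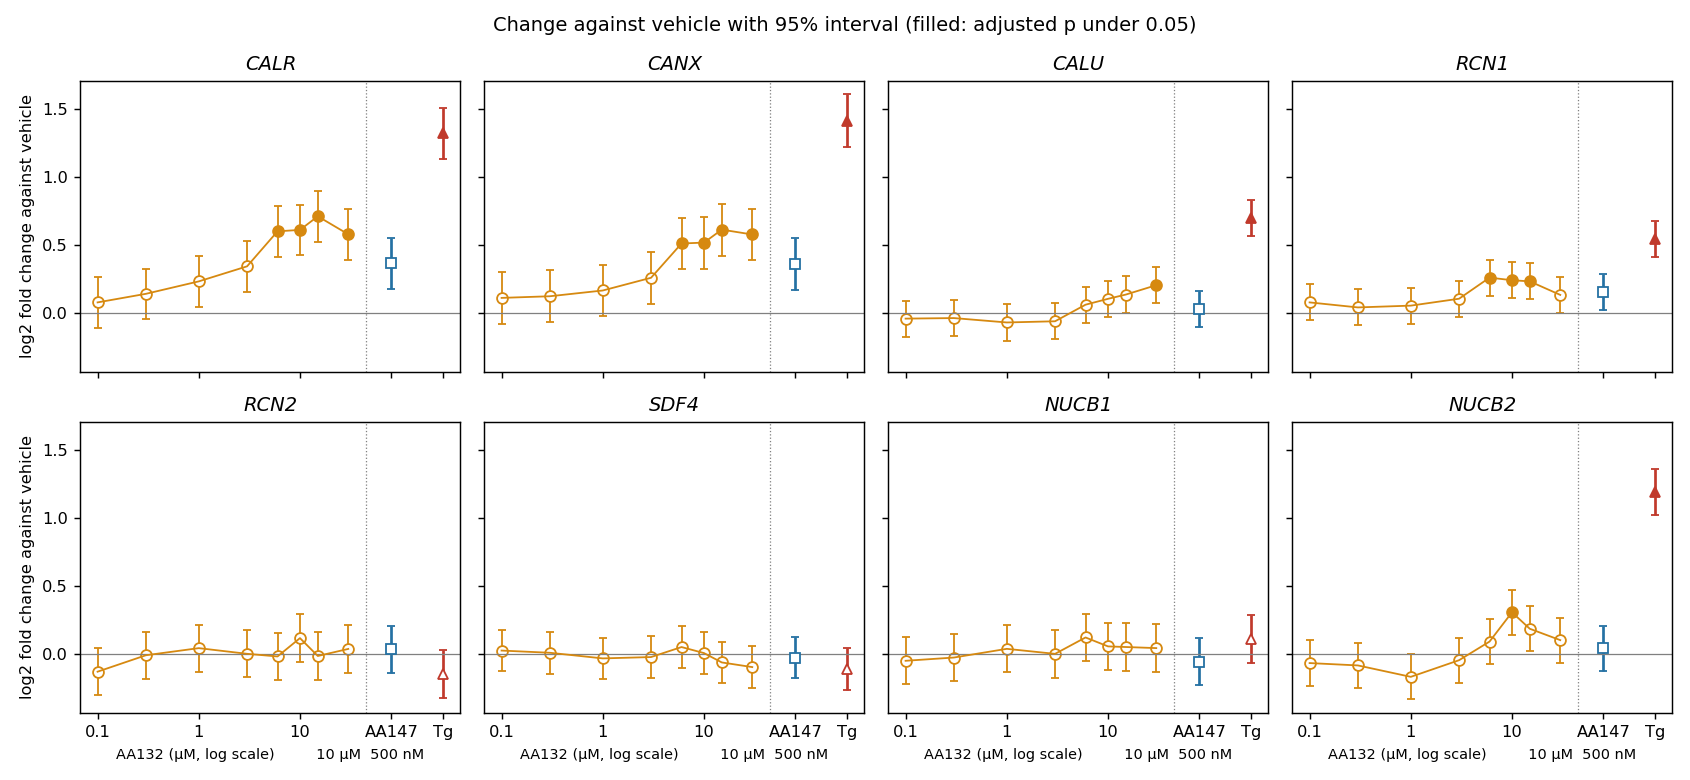
Log2 fold change against vehicle (y axis) with its 95% interval for each AA132 dose (x axis, log scale, orange), AA147 at 10 µM (blue squares) and Tg at 500 nM (red triangles). Filled symbols have an edgeR adjusted p under 0.05. CALR and CANX are filled from 6 µM on, with values between 0.51 and 0.71, and stay under their Tg values of 1.32 and 1.41.

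A slope on log10 dose, fitted to the 24 AA132 libraries without vehicle, asks which genes followed the dose. CALR (0.27 per log10 unit of dose, SE 0.03), CANX (0.23, SE 0.03), NUCB2 (0.13, SE 0.03), CALU (0.10, SE 0.02) and RCN1 (0.07, SE 0.02) had rising slopes in log2 units (edgeR adjusted p = 1.80e-07, 9.72e-08, 0.00109, 5.19e-04 and 0.0185). These are 5 of the 8 genes, where 18.7% of 17554 genes were called and 9.83% had a rising slope. RCN2 (0.05), NUCB1 (0.05) and SDF4 (-0.03) were not called (adjusted p = 0.154, 0.187 and 0.352). The 5 calls held without the 30 µM dose, without each single library, and without 1 µM library 1 and 3 µM library 3 together, where the CALR slope was 0.27. A straight line does not describe a gene that was highest at a middle dose, as the means of NUCB2 at 10 µM and RCN1 at 6 µM were.

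AA147 at 10 µM was compared with vehicle for its own effect. None of the 8 genes was called, where 0.0225% of all genes were, although CALR, CANX and RCN1 had an unadjusted p under 0.05. Over all genes 1211 of 17793 had one. CALR held 1521, 1530 and 1524 CPM, and CANX held 1014, 1012 and 1035 CPM, all above the vehicle libraries and within a narrow range. Their log2 fold changes were 0.37 and 0.36 (SE 0.09 each), with edgeR adjusted p = 0.196 and 0.250. RCN1 held 86.9, 79.7 and 82.3 CPM, also above vehicle, with a log2 fold change of 0.16 (95% interval 0.03 to 0.29, edgeR adjusted p = 0.647). The other 5 genes had log2 fold changes from -0.05 to 0.04. The value for CALR crossed the threshold under other fits: adjusted p = 0.00146 without the 2 libraries that stood apart at 1 and 3 µM, 0.0493 with DESeq2 and 1.69e-04 with no filter on low counts, at a log2 fold change of 0.37 in each. Those 2 libraries are neither AA147 nor vehicle, and were chosen after their ER chaperone levels were seen. Leaving them out alters the pooled spread and not the difference, so the smaller p is no added support for an AA147 effect. With no filter CANX was called too (adjusted p = 2.71e-04). For CANX the log2 fold change was 0.22 without vehicle library 1 (adjusted p = 0.346).

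AA132 and AA147 were then compared directly at 10 µM, the dose at which both were used. None of the 8 genes differed at an adjusted p under 0.05, where 0.0674% of all genes did. The largest differences were those of NUCB2 (log2 0.26 higher with AA132, 95% interval 0.10 to 0.43, edgeR adjusted p = 0.306) and CALR (0.25, 95% interval 0.06 to 0.43, edgeR adjusted p = 0.413), the 2 genes with an unadjusted p under 0.05. Over all genes 1425 of 17793 had one. CANX differed by 0.16 (95% interval -0.03 to 0.35, edgeR adjusted p = 0.709). For CALR all 3 AA132 libraries lay above all 3 AA147 libraries, and for CANX the lowest AA132 library, at 1035 CPM, was level with the highest AA147 library. The NUCB2 libraries of AA147 held 134, 102 and 105 CPM, of which library 1 was high. Without it, the NUCB2 difference was 0.40 (edgeR adjusted p = 0.0245). Library 1 of AA132 was also high for NUCB2, at 149 CPM against 131 and 129.6 CPM, and without that library NUCB2 was not called. The intervals of CALU, RCN1, RCN2, SDF4 and NUCB1 all contained 0 and ended between 0.19 and 0.29, before adjustment over all genes. Larger differences could also go uncalled after adjustment, as for HSPA5 at 0.66 (edgeR adjusted p = 0.106).

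**Figure D3:**
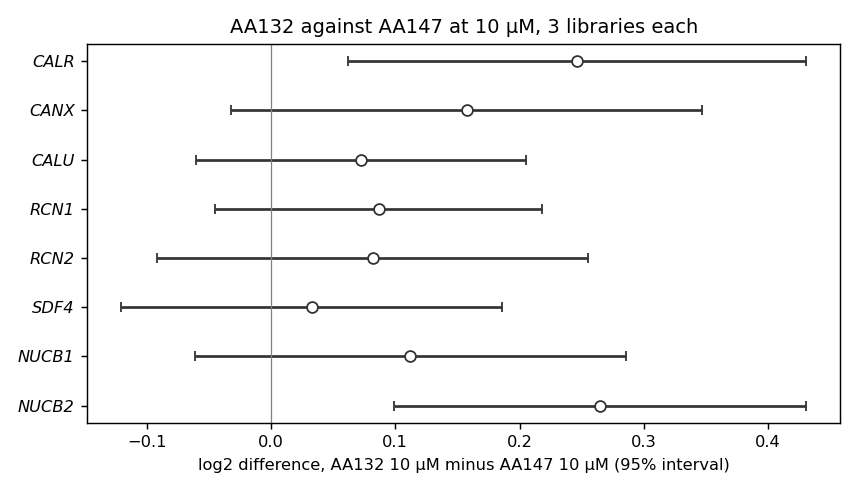
Log2 difference between AA132 and AA147 at 10 µM (x axis, positive values higher with AA132) for the 8 genes, with 95% intervals from 3 libraries of each compound. Only the intervals of CALR and NUCB2 lie clear of 0 before adjustment over all genes, and none of the 8 was called after it.

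At its highest dose AA132 was also set against Tg, at 30 µM and 500 nM. CALR, CANX, CALU, RCN1 and NUCB2 were lower with AA132, 5 of 8, where 29.8% of all genes were called and 15.5% were lower. The log2 difference was -1.09 (SE 0.08) for NUCB2, -0.84 (SE 0.09) for CANX, -0.74 (SE 0.09) for CALR, -0.49 (SE 0.07) for CALU and -0.41 (SE 0.06) for RCN1 (edgeR adjusted p from 2.06e-12 to 7.40e-06). As a share of the log2 change under Tg, the change at 30 µM was 43.9% for CALR and 40.9% for CANX, but 8.80% for NUCB2, with CALU at 29.6% and RCN1 at 25.0%. These shares have the vehicle libraries in common and are given without a test. RCN2, SDF4 and NUCB1 were not called (0.18, 0.02 and -0.07, edgeR adjusted p = 0.102, 0.908 and 0.613). With only the 2 conditions in the fit RCN2 was called (0.20, adjusted p = 0.00621), and likewise with no filter on low counts.

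By level, CALR and CANX had the same order of conditions in outline. Vehicle and the doses up to 3 µM, whose libraries overlapped from neighbour to neighbour, were followed by AA147, then by 6, 10, 15 and 30 µM in a different order for each gene, and by Tg. Tg was clear of every other condition. AA147 was clear of the condition next above it by mean, 30 µM for CALR and 6 µM for CANX, but single libraries met across this step: CALR held 1665 CPM in 3 µM library 2 and 1663 CPM in 10 µM library 1, and CANX held 1035 CPM in 10 µM library 1 and in the highest AA147 library. For CALU, RCN1 and NUCB2 only Tg was clear of the condition next below it. For RCN2 the only clear step lay between AA132 0.1 µM (246 ± 9.22 CPM) and 6 µM (265.5 ± 3.75 CPM), the 2nd and 3rd lowest conditions. SDF4 (174.5 to 195.3 CPM between condition means) and NUCB1 (130.1 to 147.1 CPM) had no neighbouring conditions that were clear of each other. The spread between libraries of a condition had a median coefficient of variation between 3.56% and 5.80% for the 8 genes, and its highest value was 19.0%, for CANX in vehicle.

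The partners of calnexin and calreticulin in the glycoprotein folding cycle form a list of 14 genes: glucosidases, the folding sensors UGGT1 and UGGT2, recruited disulfide isomerases and prolyl isomerases, lectin relatives, and mannosidases that lead to degradation. Under Tg 7 of the 14 were called higher and 1 lower, with a median log2 fold change of 0.20, where 16.2% of all genes were called higher, 15% lower and the median was 0.00. EDEM1, which directs misfolded glycoproteins to degradation, rose from 56.2, 73.9 and 61.0 CPM to 185, 193 and 168 CPM (log2 fold change 1.51, edgeR adjusted p = 2.22e-16). PDIA3, the disulfide isomerase that both lectins recruit, rose by 1.13 (adjusted p = 1.62e-14), and PPIB, a prolyl isomerase that binds them, by 1.10 (adjusted p = 2.28e-11). MAN1B1, a mannosidase that trims the sugar chain of misfolded glycoproteins, fell by 0.66 on the log2 scale (adjusted p = 6.34e-08), from 105, 78.5 and 75.9 CPM to 56.7, 52.0 and 55.4 CPM. Without vehicle library 1, 8 were called higher and 1 lower, where 2556 of 18102 genes were called higher and 2592 lower.

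With AA132 at 30 µM 4 of these 14 were called higher and none lower, with a median of 0.09, where 7.05% of all genes were called and 3.86% were higher. PDIA3 (0.34, edgeR adjusted p = 0.00233) and PPIB (0.31, adjusted p = 0.0369) were among them, beside CLGN, a calnexin relative (0.32, adjusted p = 0.0356), and the glucosidase MOGS (0.29, adjusted p = 0.0129). CLGN and MOGS are named after their values were seen. CLGN was lost without vehicle library 1 (0.25, adjusted p = 0.110). The count was 1, PDIA3 alone, without vehicle library 3 or 30 µM library 3, and 2, PDIA3 and MOGS, without 30 µM library 1 or 2. EDEM1 stood at 64.5, 65.7 and 63.7 CPM, within the vehicle range (log2 fold change 0.02, adjusted p = 0.924), and differed from Tg by -1.49 (SE 0.08, adjusted p = 8.72e-16). EDEM1 and NUCB2 were thus both well above vehicle under Tg and near vehicle at 30 µM AA132. They were not alike throughout, as all 3 NUCB2 libraries at 30 µM lay above vehicle (115.2, 123.0 and 117.3 CPM against at most 114.5 CPM). The dose slope of NUCB2 was called, and that of EDEM1 was not (0.06, edgeR adjusted p = 0.0633). At 6, 10 and 15 µM the list held 1, 1 and 2 calls, all higher (0.866%, 1.03% and 1.97% of all genes were called higher). Without vehicle library 1 it held 2, 2 and 3, where 302, 341 and 399 of 18102 genes were called higher. Leaving out other single libraries of these comparisons gave 0 to 2 higher calls at 6 and 10 µM and 1 to 4 at 15 µM. A rising slope on dose was called for 6 of the 14 (9.83% of all genes), and for 4 to 8 when single libraries were left out. AA147 gave 0 calls in edgeR, with 1 of the 14 at an unadjusted p under 0.05, beside 1211 of 17793 over all genes.

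A further list holds 13 other calcium binders: abundant ER chaperones and disulfide isomerases, EF-hand prolyl isomerases (FKBP7, FKBP9, FKBP10, FKBP14), the calcium sensors STIM1 and STIM2, MCFD2 and RCN3. Under Tg 7 were called higher and 1 lower, with a median log2 fold change of 0.88, beside 16.2% and 15% of all genes. HSPA5 (3.52, edgeR adjusted p = 1.97e-17), PDIA4 (2.86, adjusted p = 1.86e-19), HSP90B1, which encodes GRP94 (2.02, adjusted p = 2.53e-18), and PDIA6 (1.41, adjusted p = 1.94e-17) had the largest changes. CALR and CANX, at 1.32 and 1.41, lay beside PDIA6 and under the other three. The 1 lower call was RCN3, a reticulocalbin with few counts (3.08, 1.52 and 1.09 CPM in vehicle, 0.842, 0.928 and 0.708 CPM under Tg), chosen for mention after its value was seen. It was lost without vehicle library 1 (log2 fold change -1.19, then -0.66 with adjusted p = 0.117).

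With AA132 at 30 µM 4 of these 13 were called, beside 7.05% of all genes, and they were the 4 leading genes under Tg: HSPA5 at 1.46, PDIA4 at 1.16, HSP90B1 at 0.81 and PDIA6 at 0.44 (edgeR adjusted p from 1.47e-08 to 6.19e-05). CALR and CANX, both at 0.58, lay between HSP90B1 and PDIA6. Without vehicle library 1, P4HB was called as well (0.24, adjusted p = 0.00801), which made 5, where 1005 of 18102 genes were called higher. HSPA5, PDIA4 and HSP90B1 were called at 3 µM (0.78, 0.51 and 0.42, edgeR adjusted p = 0.0351, 0.0401 and 0.0351), where 0.118% of all genes were. Without 3 µM library 3, the library that stood apart, the values were 1.02, 0.69 and 0.58 (adjusted p = 4.39e-05, 4.42e-05 and 1.91e-05), and CALR was called there too. That library was singled out by low levels of these same 3 genes, so larger values and smaller p without it follow from the choice. All 3 calls were lost without 3 µM library 1 or 2 or vehicle library 2 or 3. At 1 µM none of the 3 was called, at 0.39, 0.27 and 0.17, or 0.14, 0.08 and 0.05 without library 1. AA147 gave 0 calls in this list, with 6 of the 13 at an unadjusted p under 0.05, beside 1211 of 17793 over all genes. It gave 3 calls, of HSPA5, PDIA4 and HSP90B1, without the 2 libraries that stood apart. Those libraries were singled out by the levels of these same genes, so the 3 calls are no added support for an AA147 effect. Over all genes the AA147 calls ran from 0 to 82 over the refits. A rising slope on dose was called for 7 of the 13 (9.83% of all genes). Between AA132 and AA147 at 10 µM, HSP90B1 differed (0.50 higher with AA132, SE 0.09, adjusted p = 0.0167) and HSPA5 (0.66) and PDIA4 (0.49) did not pass (adjusted p = 0.106 and 0.0662). That 1 call, beside 0.0674% of all genes, was lost without AA147 library 2 or 3 or AA132 library 2 or 3. Without AA132 library 1 there were 4 calls, HSPA5, PDIA4, HSP90B1 and PDIA6, and without the 2 libraries that stood apart at 1 and 3 µM there were 3. The latter count has the same limit of choice as that of AA147. Over all genes the calls between the 2 compounds ran from 0 to 98 over the refits. FKBP14 (0.95, adjusted p = 3.37e-10), MCFD2 (0.88, adjusted p = 5.58e-09) and P4HB (0.90, adjusted p = 1.74e-13) were the other higher calls under Tg, named after their values were seen. They had values of 0.23, 0.13 and 0.16 at 30 µM AA132 that were not called.

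**Figure D4:**
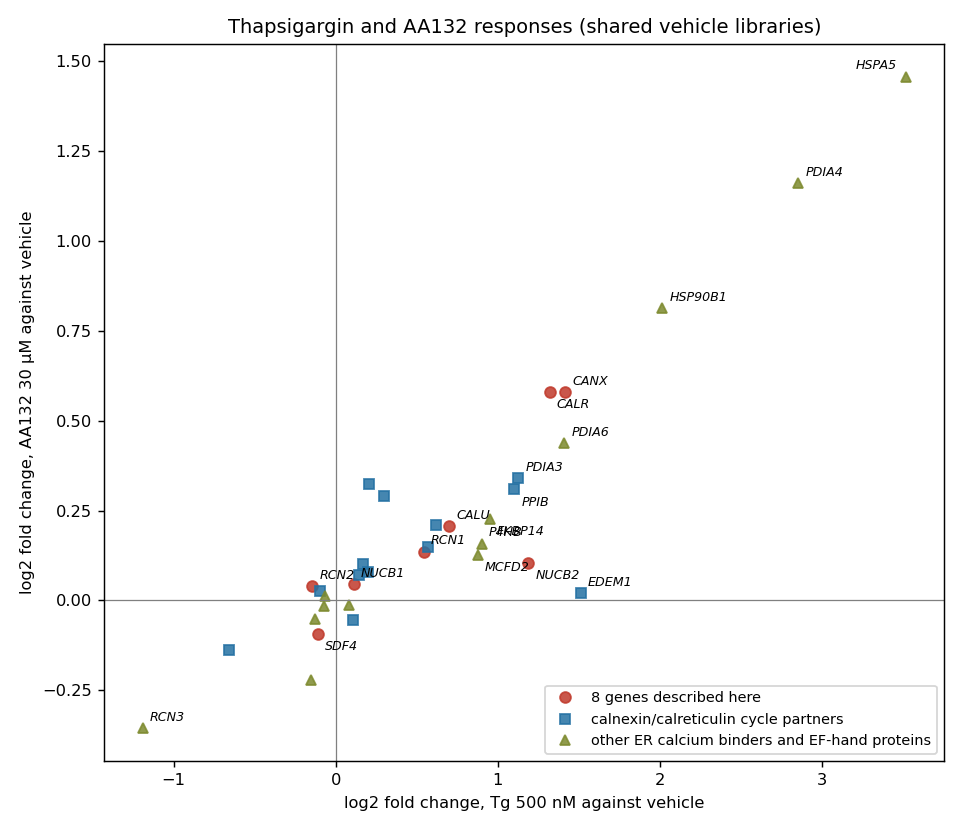
Log2 fold change under Tg 500 nM (x axis) and AA132 30 µM (y axis), both against the same vehicle libraries, for the 8 genes (red circles), 14 cycle partners less CALR3, which has fewer than 1 CPM (blue squares), and 13 other calcium binders (green triangles). HSPA5 and PDIA4 lie highest on both axes, CALR and CANX sit at 1.32 and 1.41 on the Tg axis and 0.58 on the AA132 axis, and EDEM1 and NUCB2 lie right of 1 on the Tg axis but at 0.02 and 0.10 on the AA132 axis.

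Genes with the most similar pattern over the 11 condition means of log2 CPM are given as a description, since the points share libraries and Tg lies far from the rest. CALR was most like MANF (Pearson r = 0.997, and 0.994 over the 10 conditions without Tg), HSPA5 (0.993) and CRELD1 (0.991). CANX was most like HSPA5 (0.995, and 0.985 without Tg), SLC39A14 (0.994) and PDIA4 (0.994). The pair CALR and CANX had r = 0.989, and 0.987 without Tg. CALU was most like STT3A (0.997), a subunit of the enzyme that attaches the sugar chain, SLC33A1 (0.996) and SARS (0.996). RCN1 was most like XBP1 (0.976), NOTCH4 (0.975) and CANX (0.968). Computed from 1 library per condition, by column number, r had an SD of 0.205 for NOTCH4 (mean 3.65 CPM). That SD was 0.032 for XBP1 and 0.026 for CANX.

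NUCB2 was most like CRY1 (0.990), TARS (0.990), a transfer RNA synthetase, and MORF4L2 (0.989), at values of 0.920, 0.936 and 0.926 without Tg. Its correlation with CALR was 0.897, and 0.779 without Tg. For the 3 genes that were not called in any comparison the closest patterns were weaker: RCN2 with TSIX (0.911), which lies opposite XIST, SDF4 with JPH2 (0.945) and NUCB1 with ACSS1 (0.928). JPH2 had a mean of only 0.167 CPM, so its value rests on few counts. The SD of r by column number was 0.262 for TSIX, 0.173 for JPH2 and 0.041 for ACSS1.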

How the data were processed

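The deposited table gives the authors' estimated count for each gene and library, headed as linear total reads per the file headers, with totals that differ between libraries. The build GRCh38.p7 is named in the submitters' processing notes. The aligner, counter, annotation and use of strand are not given in the sources used here. The lowest value, 0.009, fills 43.5% of cells and was set to 0, and 3.22% of cells hold fractions, so the expected counts deposited were rounded. Entries sharing a name (98 entries, 45 names) were summed, and 28 date-like entries were kept apart. Quasi-likelihood fits in edgeR 4.0.16 (R 4.3.3) with TMM scaling and the edgeR filter on low counts took in all 11 conditions at once (17793 genes) and, for the dose slope, 24 AA132 libraries (17554 genes). Calls used a threshold of 0.05 on p adjusted by Benjamini-Hochberg over all genes tested. Intervals are 95% intervals of the fit. The fits were tested on simulated data. CPM and RPKM were computed from TMM-scaled counts and GENCODE v44 lengths, and log2 CPM with a prior count of 2. Symbols were matched by name. Alternatives were other size factors, DESeq2 1.42.0, no filter, unrounded counts, 2-condition fits, a replicate block, and leaving out libraries. Named genes are the 8 genes, up to 4 of each list by largest change under Tg, and the 3 most similar genes. CLGN, MOGS, RCN3, FKBP14, MCFD2 and P4HB fall outside that rule and are named after their values were seen. The members and lists were chosen with earlier results of these data known. Equal column numbers did not pair the libraries.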

Additional observations from a re-analysis of the deposited data

How the results depend on the processing

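Of 28 called values of the 8 genes, 18 kept the call in every refit, and no called value changed sign in 449 refits. For the 76 values that were not called, 11 of 1039 refits gave a call and 61 gave the opposite sign. The number of the 8 genes called with AA147 was 0, against 2 with no filter on low counts, 1 with DESeq2 and 1 without 1 µM library 1 and 3 µM library 3, an alternative chosen after seeing the data. At 3 µM AA132 the number was 0, against 1 with no filter, 1 with DESeq2, 1 without those 2 libraries, and 0 to 1 when single libraries were left out. With only the 2 conditions in the fit, it fell from 3 to 1 at 6 µM, from 4 to 0 at 10 µM, from 3 to 1 at 15 µM and from 3 to 1 at 30 µM. At 10 µM it was 2 without those 2 libraries and 2 to 3 when single libraries were left out. For AA132 against AA147 it was 0, and 0 to 1 when single libraries were left out. The cause of these shifts was not tested. Over all genes, where the lowest counts mostly came from the 2-condition fits, Tg gave 5551 calls (3073 to 5769), AA147 4 (0 to 82), the AA132 doses 0 (0 to 33), 0 (0 to 25), 0 (0 to 46), 21 (0 to 153), 190 (25 to 506), 250 (8 to 651), 491 (46 to 920) and 1255 (74 to 2017) from 0.1 to 30 µM, AA132 against AA147 12 (0 to 98) and the slope 3286 (2046 to 3656).

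Equal column numbers did not mark pairs: the correlation of deviations between libraries of the same number had a median of 0.00 and exceeded 0.1 in 2 of 165 pairs, and 13 of 33 libraries were closest to their own number. A replicate block changed 1 call, that of NUCB2 at 10 µM, where 3 of the 8 genes were called. Rounding the counts and the choice of size factors changed no call among the 8 genes. Levels per length shift with the transcript length assumed. Dose slopes aside, the smallest change called among the 8 genes was 0.21 on the log2 scale, for CALU at 30 µM. That call was lost in 8 refits.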
